A study of Canis lupus familiaris with 28 samples.

Results

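*LYZ*, the gene for lysozyme, was followed through all 28 RNA-seq libraries of a study of canine histiocytic sarcoma (HS), a malignancy of macrophage and dendritic cell lineages. It is 1 gene of the 32704 counted, listed under the identifier ENSCAFG00000000426, and its symbol was taken from the differential expression tables that accompany the study. It was chosen because it was the most counted gene in 2 of the 3 normal blood libraries. Its level in blood is therefore described and not tested. The rule that picked it used blood alone, but the gene and the lists below were chosen with earlier results of these data known. The tests below are thus not fully independent of that choice.

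Tumors came from Bernese Mountain Dogs (BMDs), 15 labelled HS and 3 labelled hemophagocytic HS (HHS), and were mostly tumor tissue by histopathology. The tumors were taken from the lung (6), the liver (4), the spleen (2), the thorax or a thoracic mass (3), a leg mass or the shoulder (2) and a lymph node (1). The normal controls were blood of 3 BMDs (libraries 35779, 35780 and 35116) and 1 spleen, 1 lung and 1 liver library from German Shepherd Dogs (GSDs). The HS cell lines were BD and OD, from BMDs, and PJ, from a Rottweiler, each a single library of 1 line. The dendritic cell strain DC3F9 had been differentiated with GM-CSF and IL-4 from monocytes of a mongrel dog's blood and was labelled unstimulated. No other treatment is given for any group. Nothing in the labels names the dogs, so the p-values below measure the spread between these libraries.

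Lysozyme cuts the peptidoglycan of bacterial cell walls. It is stored in the granules and lysosomes of neutrophils, monocytes and macrophages, is secreted by them and by many glandular epithelia, and is used by pathologists as a marker of cells of the monocyte and macrophage lineage. In blood its transcripts come from white cells, and globin RNA, from red cells, was depleted before sequencing here. In these bulk libraries, fewer cells that make a transcript and less of it per cell cannot be told apart.

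Total counts on genes ran from 82007857 (DC3F9) to 180801439 (liver control), so that even the fewest *LYZ* counts, 7380 in the liver control, fixed its share of the library closely. The 95% exact binomial (Clopper-Pearson) interval of that share was 0.00399% to 0.00418%, and for the highest tumor it was 0.721% to 0.724%. These intervals cover counting error only. Blood had a flow cell of its own, apart from that of the tumors and organ controls, so flow cell, tissue and, against the organ controls, breed cannot be told apart in any difference from blood. The tumors were all from BMDs and the organ controls all from GSDs, so breed and disease cannot be told apart between them. The lymphoid markers (7 genes, among them the T cell genes *THEMIS* and *TCF7*) summed to 619 to 1109 CPM (counts scaled to the library total) in blood and to 15.02 to 228 CPM in the tumors. The hepatocyte markers (7 genes, such as *PLG*) summed to 7310 CPM in the liver control and to 2.65 to 151 CPM in the tumors. The lung epithelial markers (3 genes, such as *AGER*) summed to 2023 CPM in the lung control and to 2.09 to 57.9 CPM in the tumors. Blood, liver and lung thus carried the genes of their labelled tissue.

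In blood, *LYZ* took 0.784% of all counts in library 35779, 1.19% in 35780 and 0.847% in 35116, a mean of 0.940% ± 0.218 (SD, n = 3). It ranked 1, 1 and 3 among all genes by count. The choice of the gene was narrow in the first of these libraries, where ENSCAFG00000017646 followed with 0.760%. It was wider in the second, where ENSCAFG00000002656 followed with 0.943%. In the third library ENSCAFG00000002656 (1.09%) and ENSCAFG00000029904 (0.976%) stood above it. The supplementary rows read here gave no symbol for these 3 genes. The reference matched 0 identifiers directly, so it could not supply one. Counts were not divided by gene length, so a rank by count is not an order of transcript levels.

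In the organ controls *LYZ* took 0.106% of the counts of the spleen, 0.0412% of the lung and 0.00408% of the liver. The blood mean was 8.83 times the spleen value, 22.8 times the lung value and 230 times the liver value. The liver control was the lowest of the 28 libraries, and its single most counted gene took 12.8% of all its counts. When library totals were multiplied by TMM factors, which correct for such dominating genes, the liver value became 0.0115% and was still the lowest of the tissue and blood libraries. The study excluded an outlying control, and the liver control was left out of the main fit below as in the study.

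By share of the library total, all 18 tumors held *LYZ* above the liver control and below the lowest blood control, although HS14 passed 2 blood libraries on another scaling given below. The tumor shares ran from 0.0287% to 0.722%, a 25.2-fold range, with a median of 0.121% and a mean of 0.181% ± 0.175 (SD, n = 18). By count it was among the 200 most counted genes in 15 of 18 tumors and among the 100 most counted in 8, and it was the most counted gene in none of them. The spread over tumors was wide for a gene: the SD of its log2 CPM was 1.26, against a median SD of 0.66 over the 8853 genes whose mean reached 3 log2 CPM, and 90.8% of those genes had a lower SD.

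**Figure D1:**
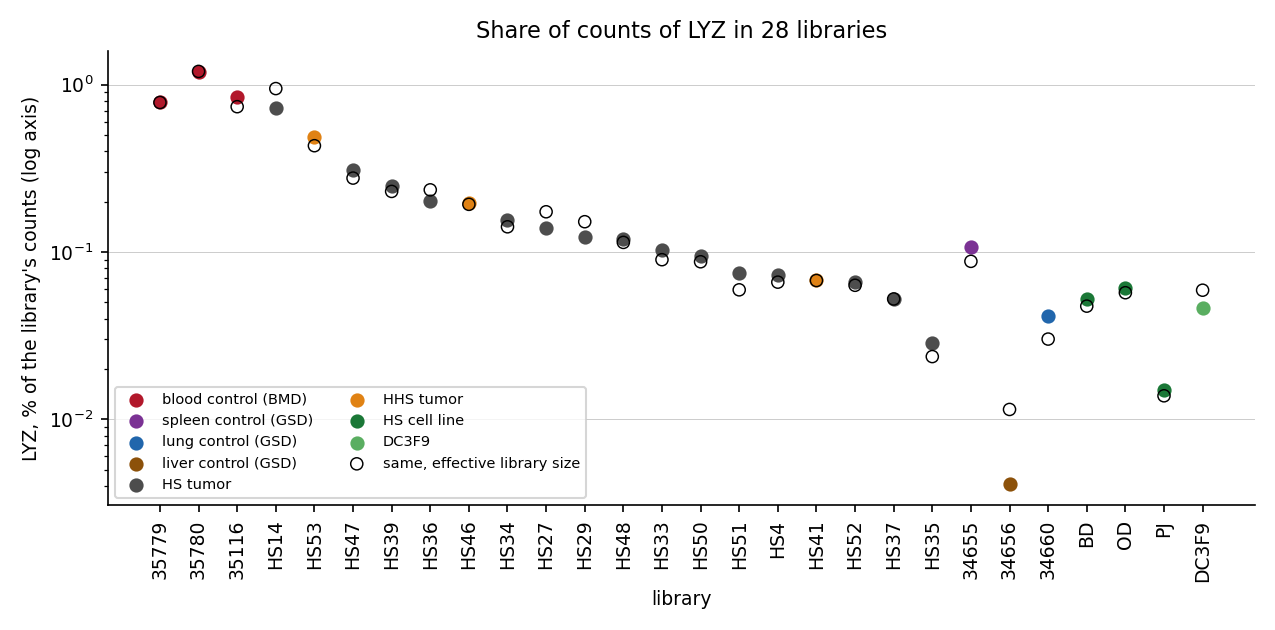
Share of all counts taken by *LYZ* in each of 28 libraries (log axis), blood first, then tumors from high to low, organ controls and cell libraries. Filled points use the library total and open circles the effective library size (total times TMM factor). The 3 blood libraries lie between 0.784% and 1.19%, the tumors between 0.0287% and 0.722% and the liver control at 0.00408%, while HS14 passes 2 of the blood libraries on the effective library size.

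Taken tumor by tumor, HS14, from the thorax, stood highest at 0.722%, where *LYZ* ranked 11 among all genes. The HHS tumor HS53, from the lung, followed at 0.488%. HS47 (lung) held 0.310%, HS39 (shoulder) 0.248% and HS36 (liver) 0.201%. These 5 tumors were the ones above 0.2%.

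A middle group of 12 tumors lay between 0.05% and 0.2%. HS46 (HHS, liver) held 0.195%, HS34 (leg mass) 0.156%, HS27 (lung) 0.139%, HS29 (spleen) 0.122%, HS48 (lung) 0.120% and HS33 (liver) 0.103%. HS50 (liver) held 0.0948%, HS51 (spleen) 0.0754%, HS4 (thoracic mass) 0.0733%, HS41 (HHS, lymph node) 0.0684%, HS52 (lung) 0.0658% and HS37 (thorax) 0.0526%. HS35, from the lung, was the lowest tumor at 0.0287%, where *LYZ* ranked 576.

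The gap between HS14 and the blood libraries was small and depended on the scaling. The lowest blood share was 1.09 times that of HS14. With effective library sizes HS14 held 0.948% and exceeded blood libraries 35779 (0.782%) and 35116 (0.739%) but not 35780 (1.20%). HS14 also had the lowest summed phagocyte genes of the 18 tumors (586 CPM over 14 genes, against a tumor median of 1150 CPM) and the highest summed hepatocyte markers (151 CPM). That hepatocyte list includes *RDH16*, at 7.51 log2 CPM in its highest tumor, 5.60 in the spleen control and 5.69 in the lung control. The sum therefore does not single out liver cells. Its summed lysosomal genes (4994 CPM) and class II genes (35493 CPM) were in contrast high, with 15 and 16 of the 18 tumors below it. Its lymphoid markers summed to 17.6 CPM, with 1 tumor below it. The part of these differences in its *LYZ* level was not tested.

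Ordered by mean share, blood (0.940% ± 0.218) came first, then the HHS tumors (0.251% ± 0.215, n = 3), the HS tumors (0.167% ± 0.171, n = 15), the spleen control (0.106%), DC3F9 (0.0463%), the cell lines (0.0427% ± 0.0244, n = 3), the lung control (0.0412%) and the liver control. HHS and HS tumors, as neighbors in that order, overlapped widely. The spleen control lay inside the tumor range, with 10 tumors above it and 8 below. The lung control lay inside it too, with HS35 below and 17 tumors above. DC3F9 and the lung control lay within 1 SD of the cell line mean, although the cell libraries were counted in a separate table and their library kit may have differed.

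By organ, the 4 liver tumors held 0.0948% to 0.201% of their counts in *LYZ*, with a mean of 0.148% ± 0.0574 (SD), 36.4 times the share of the liver control. The lowest of them was still 23.2 times that control by total counts. On the effective library size the lowest liver tumor held 0.0874% and the liver control 0.0115%. The 6 lung tumors held 0.0287% to 0.488%, with a mean of 0.192% ± 0.174, 4.66 times the lung control, which 5 of them exceeded. The 2 spleen tumors held 0.0754% and 0.122%, on either side of the spleen control. Each organ had 1 control library, so no test within an organ was made.

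**Figure D2:**
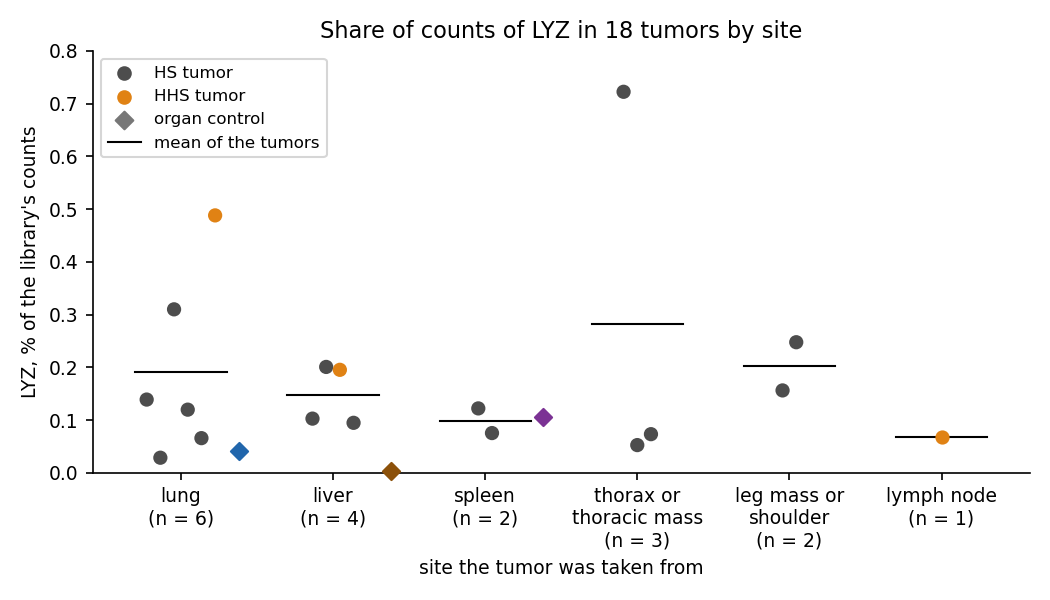
Share of counts of *LYZ* in the 18 tumors by the site of the tumor (points, HHS in orange), with the mean of each site (line) and the normal organ library of that site where there is one (diamond). All 4 liver tumors lie far above the liver control at 0.00408%. The lung tumors spread from 0.0287% to 0.488%, with HS35 alone below the lung control of 0.0412%. HS14 sets the high mean of the thoracic tumors.

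HHS is the form of the disease in which the neoplastic macrophages engulf blood cells, and HHS tumors were compared with HS tumors. The 3 HHS tumors held 0.0684%, 0.195% and 0.488%, and 1 of the 15 HS tumors lay above the highest and 3 below the lowest of them. Mean log2 CPM was 10.81 ± 1.31 in HHS (n = 3) and 10.26 ± 1.27 in HS (n = 15), and the log2FC from edgeR's quasi-likelihood test was 0.32 (SE 0.77, adjusted p = 0.975). The difference was smaller than its error. Without HS53 the log2FC was −0.48 and thus turned direction (adjusted p = 1.00 by edgeR). The same test called 0% of 19853 genes (a call needs a log2FC beyond 1.5 in either direction and an adjusted p below 0.05), with 797 genes at an unadjusted p under 0.05, while DESeq2 called 1 gene.

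None of the genes listed below was called between HHS and HS either. The class II gene *DLA-DRA*, whose product presents peptides on dendritic cells and macrophages, had a log2FC of −0.84 (SE 0.89, adjusted p = 0.943 by edgeR). *DCSTAMP*, needed for the fusion of macrophages and dendritic cells, had 2.30 (SE 1.20) and *TSPO*, an outer mitochondrial membrane protein abundant in macrophages, −2.40 (SE 0.99), both at the same adjusted p of 0.943. Without HS53 the log2FC was 0.20 for *DCSTAMP*, −0.29 for *DLA-DRA* and −2.04 for *TSPO*, and without HS46 it was −1.51 for *DLA-DRA*.

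Between tumors and the spleen and lung controls, which also differ in breed, *LYZ* had a log2FC of 1.59 (SE 1.04). For it edgeR gave an adjusted p of 0.365, so it was not called. Mean log2 CPM was 10.38 ± 1.25 in the tumors (n = 18) and 9.15 ± 1.05 in the 2 controls. The tumor range, 7.97 to 13.21, enclosed both controls at 8.41 and 9.89. An exact two-sided permutation test of log2 CPM over these 20 libraries gave p = 0.174 (adjusted over 4 comparisons, 0.667). A log2FC beyond 1.5 in either direction was common here, at 34.6% of the 21533 genes tested. Without the spleen control the log2FC was 2.51, and without the lung control 1.08.

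*LYZ* in lung tumors and in liver tumors could not be set apart. The lung tumors had a mean log2 CPM of 10.33 ± 1.502 (n = 6) and the liver tumors 10.47 ± 0.74 (n = 4). The log2FC from edgeR was 0.26 (SE 0.68, adjusted p = 1.00), of the opposite sign to the difference of those means, and it was −0.22 without HS53. The exact permutation test gave p = 0.857. Again 0% of 17671 genes were called, with 907 at an unadjusted p under 0.05, and DESeq2 called 99. Of the phagocyte genes, *NCF4*, a subunit of the oxidase that makes the oxidative burst, had a log2FC of 1.20 (SE 0.52, adjusted p = 0.968 by edgeR) and *LTC4S*, leukotriene C4 synthase, 1.19 (SE 0.86, adjusted p = 1.00). *ARHGAP9*, a GTPase-activating protein of blood cells, went the other way with −0.71 (SE 0.30, adjusted p = 0.968), and 8 of the 13 phagocyte genes tested were above 0 with a median of 0.06.

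All 4 cell libraries expressed *LYZ*. It took 0.0521% of the counts of BD, 0.0611% of OD, 0.0150% of PJ and 0.0463% of DC3F9, so BD and OD lay above and PJ below the dendritic cells by share. With TMM factors, of which DC3F9 had the lowest at 0.784, all 3 lines lay below DC3F9, at 8.89, 9.16 and 7.11 log2 CPM against 9.21. A lack of overlap with the single DC3F9 library was common, at 63.4% of all genes tested. The log2FC from edgeR was −0.58 (SE 0.80, adjusted p = 0.754), and it was −0.12 with library totals alone. With 1 control library, 4 arrangements exist and the exact permutation test cannot go below p = 0.25. It gave p = 0.50. edgeR called 0% of 18121 genes in this comparison, with 2788 at an unadjusted p under 0.05, and DESeq2 called 1855.

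**Figure D3:**
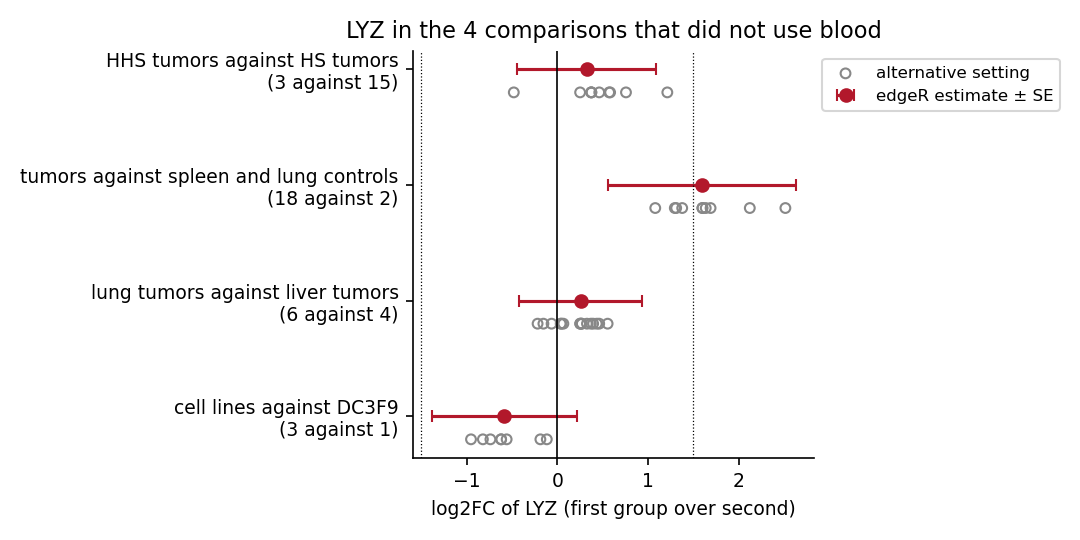
log2FC of *LYZ* with its SE (red) in the 4 comparisons that did not use blood, and the values under the alternative settings (grey circles). The dotted lines mark a log2FC of 1.5 in either direction. The estimates are 0.32, 1.59, 0.26 and −0.58, and only tumors against the spleen and lung controls passes 1.5, with an SE of 1.04.

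Genes listed for phagocytes were set beside *LYZ*, though not all were high in blood as *LYZ* was. *LTC4S* had a mean of −5.33 log2 CPM in blood, where −6.22 is the value given to 0 counts. The 14 phagocyte genes include *CSF2RB* (the shared beta chain of the GM-CSF, IL-3 and IL-5 receptors), *NCF4*, *RAC2* and *CYTH4*. They also include the enzymes *LTC4S* and *VNN1*, the mitochondrial protein *TSPO* and the cytokine *TNF*. Against the spleen and lung controls, 0 of 14 were called higher and 1 lower, where 8.77% of all genes were called (1.78% higher and 6.99% lower). Their median log2FC was 0.97, against 0.08 over all genes tested. *CSF2RB* had a log2FC of 1.49 (SE 0.69), *CYTH4*, an exchange factor of ARF proteins, 1.53 (SE 0.67), *NCF4* 1.68 (SE 0.77) and *LTC4S* 3.65 (SE 1.62), with edgeR adjusted p-values between 0.16 and 0.19. These values depended on the controls. With the liver control added, which the study left out, all 4 were called, at log2FCs of 1.86, 2.04, 2.14 and 3.89 in that order (edgeR adjusted p-values of 0.025 to 0.044). Without the lung control *CSF2RB*, *CYTH4*, *NCF4* and *LTC4S* had 0.82, 0.79, 1.13 and 7.52, and without the spleen control 2.94, 3.39, 2.72 and 2.697, of which *CYTH4* alone was called (adjusted p = 0.037 by edgeR). Of the 4, DESeq2 called *LTC4S* (adjusted p = 0.014). Its level in the spleen control was only −3.25 log2 CPM, so its 7.52 without the lung control rests on few counts there.

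The one called phagocyte gene, *VNN1*, encodes a pantetheinase. It fell by 5.85 on the log2 scale (SE 0.92), and no tumor had more than 11 counts of it, so the size of that fold depends on the prior count. Its 2 controls stood at −0.46 and 0.47 log2 CPM, and blood stood at −6.22, the value given to 0 counts. The tumors' phagocyte genes summed to 586 to 2337 CPM, against 1031 CPM in the spleen, 624 CPM in the lung and 2611 to 3662 CPM in blood.

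Of 10 lysosomal genes, 2 were called higher and 1 lower in tumors, where 1.78% and 6.99% of all genes were. Their median log2FC was 1.06. *SMPDL3A*, a phosphodiesterase of the acid sphingomyelinase family, rose by 5.69 on the log2 scale (SE 1.54, edgeR adjusted p = 0.022) and lay at 6.85 to 12.54 log2 CPM in the tumors and at 4.77 and 5.13 in the controls. *FUCA2*, a fucosidase, rose by 1.80 (SE 0.45, edgeR adjusted p = 0.014), its tumors at 5.23 to 7.27 and its controls at 4.50 and 4.56. Tumors and controls did not overlap in 9.58% of all genes tested. *LAPTM4B*, a lysosomal membrane protein, fell by 4.16 (SE 0.93, adjusted p = 0.0062). The tetraspanin *CD63* had 1.88 (SE 0.79, adjusted p = 0.15) and the proton pump subunit *ATP6V1C1* 1.27 (SE 0.49, adjusted p = 0.11). The increases of *SMPDL3A* and *FUCA2* lost their call when either control was left out, with edgeR adjusted p-values of 0.12 to 0.31. *FUCA2* had a log2FC of 0.59 with the liver control added, and *LAPTM4B* −0.17 without the lung control.

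The 8 class II genes held 1 call, where 8.77% of all genes were called. It was a fall of 3.26 in *DLA-DOA* (SE 0.84, edgeR adjusted p = 0.017), which encodes a modulator of peptide loading found mostly in B cells. The lymphoid gene *TCF7*, a T cell transcription factor, fell by 3.68 (SE 1.10, adjusted p = 0.038) in the same comparison. *HLA-DRB1* had a log2FC of 1.38 (SE 0.99) and *HLA-DQB2* 1.45 (SE 1.11), both chains of peptide-presenting molecules. The spleen control, rich in lymphoid cells by its lymphoid marker sum of 250 CPM against 36.2 CPM in the lung control, moves with these values, and its part was not tested. Each of *DLA-DOA* and *TCF7* lost its call in 2 alternative runs. The log2FC in those runs was −0.68 and −3.82 for *DLA-DOA* and −2.49 and −4.27 for *TCF7*, the smaller falls being those without the spleen control.

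**Figure D4:**
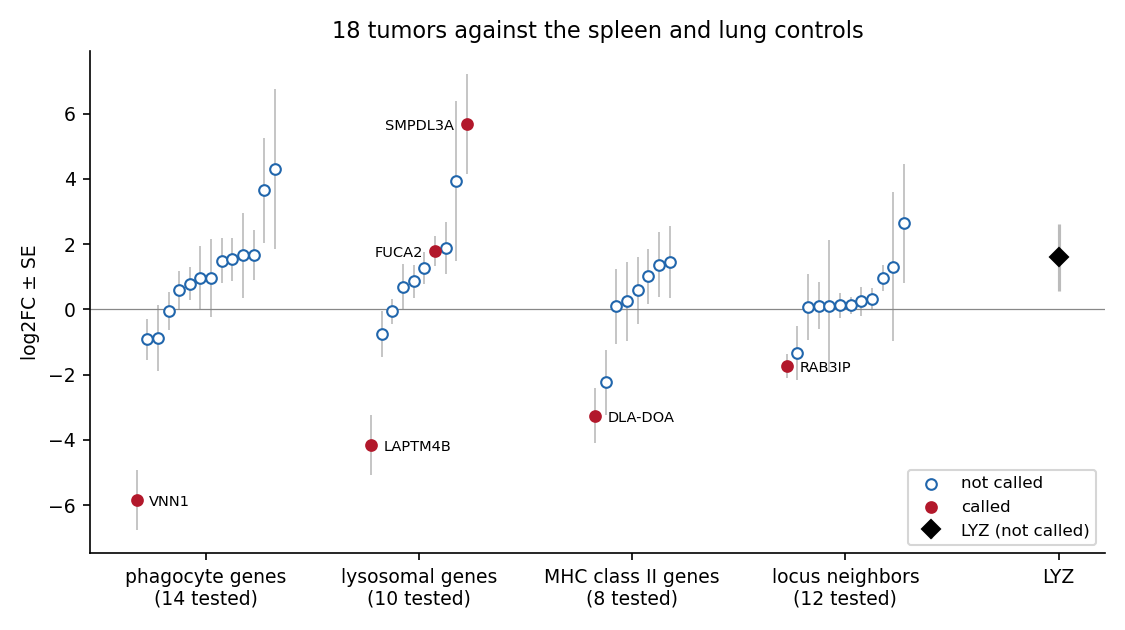
log2FC with SE of the genes of 4 lists in 18 tumors against the spleen and lung controls, ordered within each list, with *LYZ* as the black diamond at 1.59. Called genes are red and named: *SMPDL3A* and *FUCA2* above 0, and *VNN1*, *LAPTM4B*, *DLA-DOA* and *RAB3IP* below it.

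The genes around *LYZ* were taken from the order of protein-coding genes in the RefSeq annotation of a German Shepherd Dog assembly, which is not the build of the counts, so no coordinates are given. There *CPSF6*, for a factor of mRNA 3′ processing, lies on one side of *LYZ* and *YEATS4*, for a reader of histone acylation, on the other. Farther out lie the carboxypeptidase gene *CPM*, *MDM2*, the ubiquitin ligase of p53, and *NUP107* on the first side and *FRS2*, *CCT2* and *RAB3IP* on the second. Of 14 such genes 12 were tested against the spleen and lung controls, and 1 was called, where 8.77% of all genes were. *RAB3IP*, an exchange factor of RAB8, fell by 1.73 (SE 0.37, adjusted p = 0.0041), and had −0.996 without the lung control. *YEATS4* had a log2FC of 0.95 (SE 0.40, adjusted p = 0.15 by edgeR) and *CCT2*, a chaperonin subunit, 0.32 (SE 0.33). The median of the 12 was 0.12. In the cell lines *MDM2* had a log2FC of −2.09 (SE 0.58, adjusted p = 0.22) and *CPM*, a membrane carboxypeptidase of macrophages, −3.79 (SE 1.04, adjusted p = 0.22) against DC3F9, neither of them called.

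Among the marker lists of other cell types, some held calls in this comparison and others did not. No stromal (4 tested), hepatocyte (6 tested) or erythroid (2 tested) marker was called. Of 6 lymphoid markers tested, 1 was called lower (*TCF7*). Of the endothelial markers 3 of 4 were called lower in tumors (*PTPRB*, *MYCT1* and *NOTCH4*), and of the lung epithelial markers 2 of 3 (*AGER* and *GRHL2*). Over all genes tested, 6.99% were called lower. The endothelial markers summed to 824 CPM in the lung control, 177 CPM in the spleen control and 5.32 to 132 CPM in the tumors. Without the lung control *AGER*, *GRHL2* and *NOTCH4* turned direction, and the number of genes called went from 1889 to 257. Whether these differences in tissue makeup bear on *LYZ* was not tested.

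The phagocyte list could hold only genes with a symbol here, so it need not stand for the phagocyte content of a tumor. Over the 18 tumors, no relation between the level of *LYZ* and any of the 14 listed phagocyte genes passed the test. Spearman's rho between the log2 CPM of *LYZ* and each of them ran from −0.34 (*VNN1*, with at most 11 counts in a tumor) to 0.36 (*LTC4S*), with a median of −0.10, and 3 of 14 were above 0. The lowest besides *VNN1* was *CSF2RB* at −0.24. After Benjamini-Hochberg adjustment over these 14 relations, 0 had a permutation p under 0.05 by rho or by Pearson's r. The smallest p was that of *LTC4S*, with r = 0.48 (permutation p = 0.0405, adjusted 0.566) and a rho at permutation p = 0.139. Leaving out HS14 and HS35, the tumors farthest from the median of *LYZ*, its r was 0.20. Within the 6 lung tumors alone, rho ran from −0.66 to 0.31 over the same genes. All tumors shared 1 flow cell, and the points share the scaling of each library.

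For the further lists, genes with fewer than 100 counts in every tumor were left out, a minimum chosen after the values were seen. Of the 9 lysosomal genes left, 8 had a rho above 0 with *LYZ* (median 0.10), led by *FUCA2* (0.66) and *CD63* (0.42). The 7 class II genes left had a median of 0.09 and ran from −0.33 (*DLA-DOB*) to 0.32 (*HLA-DRB1*). Of the 10 genes left around *LYZ*, 2 were above 0 and the median was −0.17. *YEATS4*, its nearest listed neighbor on one side, had 0.54, while *CPSF6* on the other had −0.03. The median over 618 named genes whose mean reached 3 log2 CPM was 0.02. Summed CPM was scaled by library totals and set against *LYZ* scaled with TMM factors, so the scalings differ and can move rho. With these sums, rho was −0.50 for the phagocyte genes, −0.43 for the genes around *LYZ* and 0.24 for the lysosomal genes. For the lymphoid markers rho was −0.04, for the erythroid markers −0.10 and for the hepatocyte markers 0.06. The rho of *LYZ* with the total count of the library was −0.18. These values are descriptions, given without a test.

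**Figure D5:**
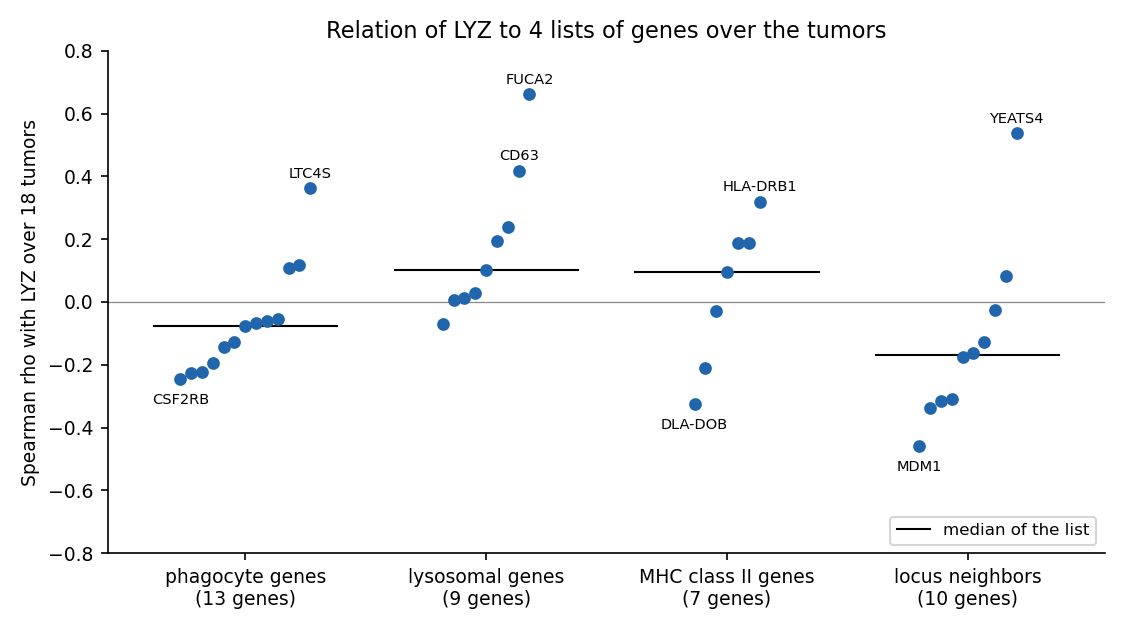
Spearman's rho with *LYZ* over 18 tumors for the genes of 4 lists that had at least 100 counts in some tumor (points), and the median of each list (line). The 13 phagocyte genes center on −0.08 and reach 0.36, while *FUCA2* (0.66) and *CD63* (0.42) lead the lysosomal genes and *YEATS4* (0.54) leads the genes around *LYZ*.

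Of the 8853 genes whose mean reached 3 log2 CPM, only 618 besides *LYZ* had a symbol here and were ranked by rho. Closer relations among the genes left out cannot be seen. Within the 618, the levels most like those of *LYZ* over the 18 tumors were those of *AGTPBP1* (rho 0.68), *FUCA2* (0.66), *SERPINB8* (0.63), *RMI1* (0.61), *NUS1* (0.60) and *RXYLT1* (0.55). They encode a carboxypeptidase that trims tubulin, the fucosidase above, an intracellular inhibitor of serine proteases, a partner of the BLM helicase, a subunit of the enzyme that makes dolichol, and a glycosyltransferase. *AGTPBP1* was highest in HS53 (6.26 log2 CPM), second highest in HS14 (5.99) and also high in HS35 (5.95), the tumor with the least *LYZ*. *SERPINB8* followed *LYZ* at the low end, with 4.46 log2 CPM in HS35, where 2 tumors were lower. With library totals in place of TMM factors, rho was 0.66 for *SERPINB8* but 0.32 to 0.46 for the remaining 5.

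The opposite pattern was closest in *GTSE1* (rho −0.59), expressed in the S and G2 phases of the cell cycle, *SUN2* (−0.59), of the inner nuclear membrane, and *LMNB1* (−0.58), which encodes lamin B1. *LMNB1* was lowest of all tumors in HS53 (5.51 log2 CPM) and *SUN2* in HS14 (6.10), the tumors with the most *LYZ*. With library totals these 3 had a rho of −0.63 to −0.76. These genes were picked from 618 for this likeness over the same 18 libraries, so no test is given.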

How the data were processed

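Counts came from 2 tables, 1 of 24 tissue and blood libraries and 1 of 4 cell libraries. The authors used cutadapt 3.7 for trimming, STAR 2.7.10a for alignment to CanFam3.1 and HTSeq 2.0.0 for counting per gene, and deposited raw counts for 32704 genes without normalization. The annotation release and the strand option are not given in the sources used here, so reads shared with overlapping genes or with other lysozyme family genes (RefSeq lists *LYZF2*, *LYZL4*, *LALBA*, *SPACA3* and *SPACA5*) could not be separated. Tissue libraries were total RNA with ribosomal and globin depletion. The paper's methods name an mRNA kit for the cell lines and the labels the total RNA kit, so levels were not tested across tables.

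Shares are counts of *LYZ* over the library total. From the deposited counts, log2FC, SE and p-values came from edgeR 4.0.16 in R 4.3.3 (TMM, filterByExpr, quasi-likelihood test, Benjamini-Hochberg over all genes), each table and comparison fitted apart. A call needed a log2FC beyond 1.5 in either direction and an adjusted p below 0.05. log2 CPM used a prior count of 2. Gene sums use library totals. DESeq2 1.42.0 was the alternative test, on all genes that passed the same filter. limma 3.58.1 was loaded by edgeR. Correlations used 100000 permutations, in Python 3.11.15 (scipy 1.17.1, numpy 2.4.6, pandas 2.3.3), and figures matplotlib 3.10.9. The tests were tested on simulated counts. At 3 counts the smallest visible level was 0.0366 CPM in the smallest library and 0.0166 CPM in the largest. The closest pair of libraries differed by a chi-square of 721 per gene, so none was a duplicate.

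Symbols came from the supplementary tables, and the rows read here gave one for 1126 of the 32704 identifiers. The paper reports more annotated genes than that, so other genes went without a symbol here. The gene lists and the ranking by rho could hold only genes with a symbol. The RefSeq gene table matched 0 identifiers directly and *LYZ* by its gene number, and no sequence was used. Named were *LYZ*, genes of fixed lists and the most counted genes. Also named were the 6 genes with the highest and the 3 with the lowest rho with *LYZ* among those with a symbol. 1 gene of a list is not reported here. The gene and the lists were chosen with earlier results of these data known. The labels' columns of the 28 libraries were all used, and the groups by *PTPN11* are not analysed here.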

Additional observations from a re-analysis of the deposited data

How the results depend on the processing

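*LYZ* was called in no comparison under any alternative run. Its log2FC from the model fits ran from −0.48 to 1.21 for HHS against HS tumors, 1.08 to 2.51 for tumors against the spleen and lung controls, −0.22 to 0.55 for lung against liver tumors and −0.95 to −0.12 for cell lines against DC3F9. The adjusted p-values ran from 0.864 to 1.00, 0.115 to 0.775, 0.959 to 1.00 and 0.666 to 0.948. The direction turned without the HHS tumor HS53 (−0.48, and up to 0.76 without another HHS tumor) and, for lung against liver tumors, without HS53 (−0.22), with HS tumors alone (−0.0633) and as a difference of mean log2 CPM (−0.15). With 1 of the 2 controls left out, *AGER* ran from −7.16 to 1.63, *GRHL2* from −5.61 to 2.38 and *NOTCH4* from −3.98 to 0.89, the positive values without the lung control. Where 1 control was left out, the lone library was assumed to vary like the tumors. The causes were not tested.

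The number of genes called varied with the setting. For HHS against HS it was 0, but 1 with DESeq2 and 4 without the low-count filter. For tumors against the spleen and lung controls it was 1889, but 3137 with DESeq2, 257 without the lung control, 1560 without the spleen control, 3450 with the liver control added and 621 for lung and spleen tumors. Against DC3F9 it was 0, but 1855 with DESeq2 and 28 without the filter, and for lung against liver tumors 99 with DESeq2. The alternatives without HS51 were added after seeing the data. No paired analysis was possible because the labels give no replicate numbers shared between groups.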
